A study of Mus musculus with 12 samples.

Results

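The comparison described here set the hypertrophic compartment of the wild type growth cartilage against the proliferative compartment. It used 6 of the 12 libraries of the series, 3 from each compartment, and every gene was compared over libraries. All 6 came from wild type mouse embryos of a mixed 129/CD-1 background at E15.5, with no mutation and no treatment in either group. The compartments were cut by laser capture from sections of the forelimb zeugopod, the segment that holds the radius and the ulna, and their RNA was amplified and sequenced. The captured cells were mostly chondrocytes with some perichondrium. The deposited labels spell the hypertrophic group "hyperproliferative", and it is called hypertrophic below, the name used in the study. Of 36186 rows in the deposited table, 9904 (27.4%) were tested, those whose level reached 5 NRPKM in 3 or more of these 6 libraries. NRPKM is the authors' normalized count of reads, scaled to the length of the exons and the size of the library. *Txnrd3*, with a third-highest value of 5.00098 NRPKM, was just inside this limit and *Zfp229*, at 4.99946, just outside it.

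Growth cartilage is ordered along the long bone. Round resting cells give rise to columns of flat proliferative chondrocytes, which make type II collagen and aggrecan under the control of *Sox9*, *Sox5* and *Sox6*. The cells then stop dividing, pass through a prehypertrophic stage marked by Indian hedgehog and the receptor of parathyroid hormone-related peptide, and enlarge into hypertrophic chondrocytes that make type X collagen. The last hypertrophic cells border the forming marrow, make *Mmp13* and *Spp1*, and mineralize their matrix. There the cartilage is invaded by blood vessels, by osteoclasts that resorb it and by osteoblasts that lay down bone.

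In short single-exon rows most values behaved as whole reads, which were not recovered for longer genes. From these rows, the value of a single read on 1 kb gave about 1890000 to 2620000 counted reads for the proliferative libraries. For hypertrophic replicates 1, 2 and 3 it gave 2340000, 3240000 and 2980000. A single read on 1 kb was worth 0.309 to 0.530 NRPKM. The libraries differed in a low background. Of 1711 rows of olfactory, vomeronasal and taste receptor and keratin-associated genes, 370 to 530 were above 0 in the proliferative libraries, 532 in hypertrophic replicate 1, and only 184 and 119 in replicates 2 and 3. The part of this difference in the results below was not tested. Hypertrophic replicate 1 also stood apart over all genes tested. Its root mean square log2 distance was 0.624 from the proliferative mean and 0.934 from the mean of replicates 2 and 3, which were 0.502 from each other. The 3 proliferative libraries were 0.662 to 0.707 from one another. The results are therefore given by library, and replicates 1, 2 and 3 below are those of the hypertrophic group unless the proliferative group is named. Where 3 values are set against 3 others, the proliferative libraries come first. *Xist* and the Y-linked genes put replicate 2 of both compartments with one sex and the other 4 libraries with the other, so that sex was balanced between the compartments.

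Over the 6 libraries, 927 of the 9904 genes (9.36%) passed the test, which asked for an unadjusted *P* of at most 0.05 in limma and a fold change (FC) of at least 2. Of these, 530 (5.35%) rose and 397 (4.01%) fell. The adjusted *P* stayed at or above 0.05 in every gene (0 genes below it), against 2000 with an unadjusted *P* of at most 0.05, so each *P* below should be read with that limit. The 6 libraries of a gene did not overlap between the compartments in 2448 genes (24.7%), upward in 13.9% and downward in 10.8%, and this held for 436 of the genes that rose (4.4% of all genes) and 321 of those that fell (3.24%). Left out of the fit, replicate 1 changed the outcome more than any other library. Without it, 954 genes (9.63%) passed as higher and 796 (8.04%) as lower, and 1957 genes (19.8%) had an adjusted *P* under 0.05, 9.98% upward and 9.78% downward. That fit holds 2 hypertrophic libraries and was made with the distance of replicate 1 known.

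To separate the 2 situations, a hypertrophic library was counted as changed where it lay beyond all 3 proliferative libraries and at least 1 log2 unit from their mean. By this description, which is not a test, 240 genes (2.42%) were higher and 93 (0.939%) lower in all 3 hypertrophic libraries. A much larger number changed in replicates 2 and 3 only, 626 genes (6.32%) upward and 569 (5.75%) downward. In the genes higher in all 3, the median difference from the proliferative mean was 1.53, 2.01 and 2.13 log2 in replicates 1, 2 and 3, and in those lower in all 3 it was -1.44, -3.00 and -2.75. In the genes higher in replicates 2 and 3 only, it was 0.32 in replicate 1 against 1.55 and 1.43. In those lower in replicates 2 and 3 only, it was -0.20 against -1.72 and -1.59. Over all genes tested the medians were 0.03, 0.12 and 0.03. Replicate 1 lay inside the proliferative range in 314 of the 626 genes and in 271 of the 569. It lay beyond that range on the other side in 78 and 59. In replicates 1 and 2 only, 17 genes were higher and 10 lower, and in replicates 1 and 3 only 25 and 15. A change in replicate 1 alone was seen in 101 genes upward and 142 downward.

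**Figure D1:**
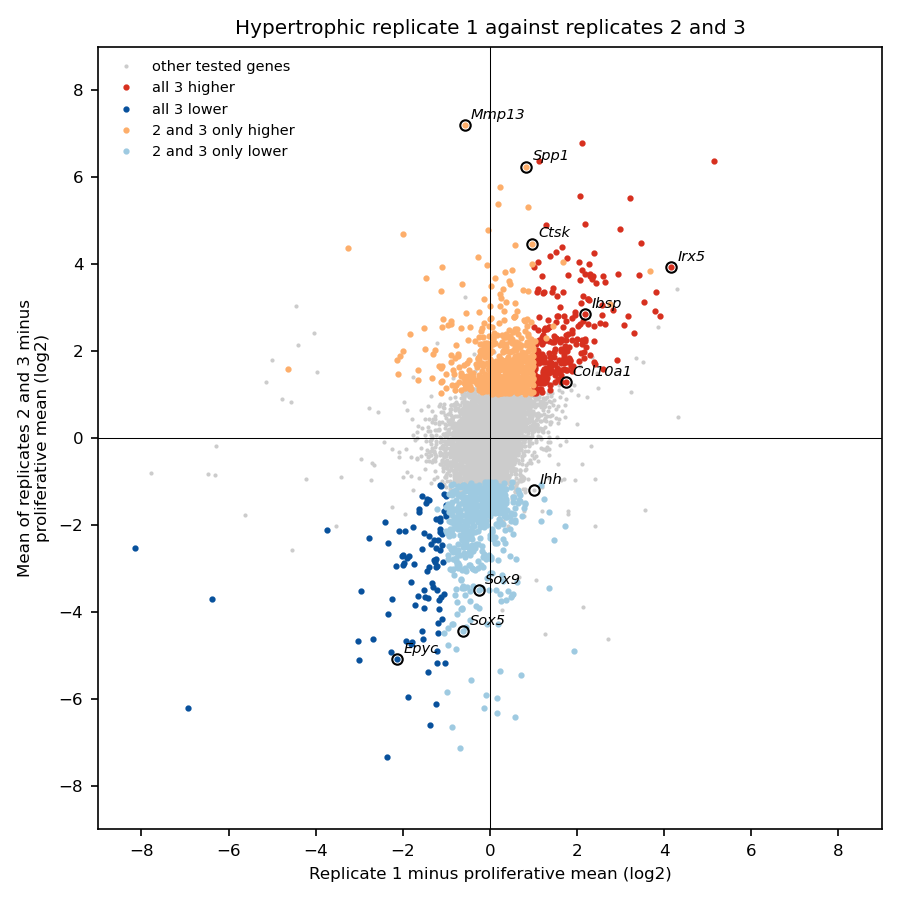
Each point is 1 of the 9904 genes tested, plotted by its difference from the mean of the 3 proliferative libraries in hypertrophic replicate 1 (horizontal, log2 of NRPKM + 0.1) and in the mean of replicates 2 and 3 (vertical, same scale), with the 240 and 93 genes changed in all 3 libraries and the 626 and 569 changed in replicates 2 and 3 only in colour. Both axes share the proliferative libraries. *Mmp13* and *Spp1* sit high near the vertical axis, while *Irx5* and *Ibsp* lie in the upper right field and *Ihh* lies right of 0 and below it.

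The filter lets a gene in through 1 compartment. Of the 9904 genes, 128 were at 5 NRPKM or more in the hypertrophic libraries only and 89 in the proliferative libraries only. Such genes had to differ to be tested, and 107 of the 128 passed as higher (83.6%) and 55 of the 89 as lower (61.8%). Of the remaining 9687 genes, which reached the limit in libraries of both compartments, 423 (4.37%) passed as higher and 342 as lower, 7.90% in all. Among these 9687, 160 genes were higher in all 3 hypertrophic libraries and 59 lower, and 598 were higher and 555 lower in replicates 2 and 3 only.

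The genes of chondrocyte maturation split by library. In the list of 21, 19 were tested, 3 rose and 2 fell over the 6 libraries, where 5.35% of all genes rose and 4.01% fell. Of the 3, *Irx5* had passed the filter through the hypertrophic libraries only. Without replicate 1 the numbers were 4 and 5, where 9.63% of all genes rose and 8.04% fell. Without any other library 3 or 4 rose and 1 fell. Under settings that kept all 6 libraries, 3 or 4 rose and 1 to 4 fell. The median log2 difference was 0.74, 0.25 and 0.42 in replicates 1, 2 and 3. *Col10a1*, the gene of type X collagen (mm10 chr10:34389981-34397085, its row overlapping that of *Nt5dc1*), was at 43.5, 98.9 and 111 NRPKM in proliferative replicates 1, 2 and 3 and at 264, 166 and 221 in hypertrophic replicates 1, 2 and 3. All 3 hypertrophic values lay above all proliferative values, and the highest was that of replicate 1. The log2 difference was 1.45 ± 0.39 (SE), with an adjusted *P* of 0.14 in limma. *Cd200*, which encodes a cell surface glycoprotein of the immunoglobulin family, was at 40.1, 27.4 and 32.5 NRPKM in the proliferative libraries and at 139, 125 and 131 in the hypertrophic ones. The groups were far apart and the 3 hypertrophic libraries nearly equal, with a log2 difference of 2.0 ± 0.20 (adjusted *P* = 0.052, 0.005 to 0.24 over the alternatives). *Irx5*, an Iroquois homeobox gene, was at 2.86, 1.3 and 0.22 NRPKM and 19.6, 16.4 and 16.9 NRPKM in the same order. It rose by 4.01 ± 0.75 log2 (adjusted *P* = 0.09) and again was as high in replicate 1 as in the others.

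Transcription factors of this list differed in size and direction. *Runx2*, required for hypertrophy and for bone formation, was at 92.8, 69.2 and 80.6 NRPKM in the proliferative libraries and 135, 102 and 115 in the hypertrophic ones. The libraries did not overlap, but the difference of 0.54 ± 0.20 log2 was below the FC limit. The same was found for *Sp7* at 0.71 ± 0.23 log2, *Dlx5* at 0.63 ± 0.19 and *Mef2c* at 0.56 ± 0.23, none of which overlapped between the groups. The homeobox gene *Dlx6* was higher in all 3 libraries, at 5.12, 0.488 and 6.43 NRPKM against 9.87, 9.42 and 6.58, but its difference of 1.66 ± 0.89 log2 did not pass. It was 0.56 without proliferative replicate 2, which was far below the other proliferative libraries. *Panx3*, a pannexin channel gene of the prehypertrophic zone, was at 186, 294 and 248 NRPKM in the proliferative libraries and 344, 235 and 221 in the hypertrophic ones, and the groups overlapped.

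In 4 genes of the maturation and mineralization lists, picked after their values were seen, replicate 1 alone counted as changed and was higher. It was also the highest hypertrophic library in other members, such as *Col10a1*, *Runx2* and *Fgfr3*, but not in *Sp7* or *Vegfa*. *Ihh*, the hedgehog ligand of prehypertrophic cells, was at 20.1, 27 and 40.5 NRPKM in the proliferative libraries and at 56.3, 9.54 and 15.3 in the hypertrophic ones. Replicate 1 was above all of the proliferative libraries, and replicates 2 and 3 were below all of them. *Pth1r*, the receptor of parathyroid hormone-related peptide, was at 68.1, 70.8 and 81.7 NRPKM in the proliferative libraries and 158, 73.1 and 91 in the hypertrophic ones, with only replicate 1 well above the proliferative range. *Bmp6*, which encodes a bone morphogenetic protein, had 25.5 NRPKM in replicate 1 against 7.85 and 9.34 in replicates 2 and 3 and 8.35 to 12.8 in the proliferative libraries. *Bmp2* had 63.5 against 26.2 and 35.1 and 13.8 to 36.6 in the same order. None of the 4 passed the test over the 6 libraries.

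*Mmp13*, the collagenase of the last hypertrophic cells, showed the opposite pattern. It was at 3.81, 4.12 and 6.24 NRPKM in the proliferative libraries, at 3.05 in replicate 1 and at 735 and 661 in replicates 2 and 3. Replicate 1 was below every proliferative library, and the other 2 were far above them. Because of this split, the log2 difference of 4.61 ± 2.04 over the 6 libraries did not pass (adjusted *P* = 0.26). Without replicate 1 it was 7.21 ± 0.26 with an adjusted *P* of 0.0006, and over all alternatives the adjusted *P* ran from 0.0006 to 0.6. *Vegfa*, the vascular growth factor, was at 19.7, 22.5 and 20.6 NRPKM in the proliferative libraries and 18, 33.8 and 48.1 in the hypertrophic ones, where replicate 1 was below and replicates 2 and 3 above the proliferative range. The difference of 0.56 ± 0.36 log2 did not pass.

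Promoters from RefSeq (GRCm38.p6), 250 bases before to 50 after the annotated start, are shown for 3 genes that mark the classes of change. They are *Col10a1*, higher in all 3 hypertrophic libraries, and *Mmp13* and the osteoclast gene *Ctsk*, both higher in replicates 2 and 3 only. Capitals mark letters found on either strand that match the RUNX motif TGTGGT, the AP-1 motif TGANTCA or the M-box TCANNTGA, where N is any base. None of the motifs overlap in these windows. In the *Col10a1* window (plus strand, chr10:34389731-34390030) none of the 3 was found. In that of *Mmp13* (plus strand, chr9:7272264-7272563) the RUNX letters begin 118 bases before the start, on the minus strand, and the AP-1 letters 35 bases before it. The window of *Ctsk* (plus strand, chr3:95498960-95499259) has an M-box 136 bases before the start.
Col10a1: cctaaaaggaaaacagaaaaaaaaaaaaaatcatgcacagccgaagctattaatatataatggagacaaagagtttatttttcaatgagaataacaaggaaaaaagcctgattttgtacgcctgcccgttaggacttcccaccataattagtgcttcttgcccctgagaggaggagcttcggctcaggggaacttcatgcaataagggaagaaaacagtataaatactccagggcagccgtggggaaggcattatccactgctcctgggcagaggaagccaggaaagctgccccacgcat
Mmp13: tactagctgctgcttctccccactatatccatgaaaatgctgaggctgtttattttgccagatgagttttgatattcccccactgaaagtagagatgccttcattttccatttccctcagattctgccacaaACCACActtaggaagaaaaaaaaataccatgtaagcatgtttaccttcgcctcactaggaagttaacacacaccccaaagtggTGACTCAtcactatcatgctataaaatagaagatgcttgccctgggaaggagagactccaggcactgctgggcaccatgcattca
Ctsk: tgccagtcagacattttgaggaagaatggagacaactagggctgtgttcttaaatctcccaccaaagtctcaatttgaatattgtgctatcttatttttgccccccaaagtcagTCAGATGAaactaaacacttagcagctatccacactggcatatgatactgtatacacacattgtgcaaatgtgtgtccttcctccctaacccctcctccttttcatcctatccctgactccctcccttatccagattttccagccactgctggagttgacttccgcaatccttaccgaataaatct

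Among all 32851 promoters of the same length, 16.8% held the RUNX letters, 7.81% the AP-1 letters and 8.39% the M-box. Promoters were found for 32 of the 45 tested genes of the maturation and osteoclast lists and of the largest changes in all 3 libraries, 43 promoters in all. Of these 43, 9 held the RUNX letters, 3 the AP-1 letters and 5 the M-box. The windows shown are examples and do not stand for their classes of change, by which the 43 were not compared. *Btla* and *Spns2*, higher in all 3 libraries, held the RUNX letters. *Tcirg1*, higher in replicates 2 and 3 only, held none of the motifs. A match is a description of the letters and not evidence of a bound site.

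The mineralization genes that passed as higher were above the proliferative libraries in all 3 hypertrophic libraries. Of 15 tested in this list of 16, 3 rose, 2 fell and 10 did not pass, where 5.35% of all genes rose and 4.01% fell. Of the 3, *Enpp6* had passed the filter through the hypertrophic libraries only, and *Ankh*, described with the genes that were not tested, was high in replicates 2 and 3 only. *Alpl*, the tissue-nonspecific alkaline phosphatase that removes the mineral inhibitor pyrophosphate, was at 47, 18.3 and 60.3 NRPKM in the proliferative libraries and 121, 122 and 162 in the hypertrophic ones. Every hypertrophic library was above every proliferative one, with a log2 difference of 1.84 ± 0.45 (adjusted *P* = 0.13). *Phex*, an endopeptidase gene needed for normal phosphate levels, was at 6.29, 4.22 and 5.65 NRPKM against 27.2, 52.4 and 88.6. Replicate 1 was the lowest of the hypertrophic libraries and still well above the proliferative ones, and the log2 difference was 3.21 ± 0.43 (adjusted *P* = 0.066, 0.0026 to 0.24 over the alternatives). The phosphodiesterase gene *Enpp6* was at 3.06, 0.26 and 1.58 NRPKM against 9.72, 34.2 and 35.6, a rise of 4.21 log2. *Mgp*, an inhibitor of mineralization, fell by 1.16 ± 0.26 log2, from 334, 517 and 353 NRPKM to 212, 186 and 138, and did not pass without proliferative replicate 2 (-0.96) or hypertrophic replicate 3 (-0.99). The calcium channel gene *Trpv4* fell by 1.68, and did so mainly in replicates 2 and 3, at 86.3, 111 and 115 NRPKM against 67.9, 18.7 and 26.5. *Phospho1*, the phosphatase of matrix vesicles, was at 0.689, 11.3 and 8.73 NRPKM in the proliferative and 11.3, 7.09 and 9.89 in the hypertrophic libraries, with overlap.

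Of 17 genes of osteoblasts and osteocytes, 12 were tested, and 7 of these rose and none fell, where 5.35% of all genes rose. Without replicate 1 the number was 10, where 9.63% of all genes passed as higher. Without proliferative replicate 2 or hypertrophic replicate 3 it was 4, without any other library 5 to 9, and with the replicate block 9. The median log2 difference was 0.71, 1.67 and 2.10 in replicates 1, 2 and 3, against 0.03, 0.12 and 0.03 over all genes. Many of these genes are also made by hypertrophic chondrocytes, so that a change per cell and a change in the share of osteoblasts cannot be told apart in bulk RNA. *Ibsp*, the gene of bone sialoprotein, was at 170.0, 82.2 and 278 NRPKM in the proliferative libraries and 718, 968 and 1331 in the hypertrophic ones. Replicate 1 was already well above the highest proliferative value, and the log2 difference was 2.63 ± 0.47 (adjusted *P* = 0.088). *Ifitm5*, a membrane protein gene of mineralizing cells, rose by 1.51 ± 0.48 log2, with 94.5, 37 and 133 NRPKM against 240.2, 171 and 263, but not without proliferative replicate 2 (0.98) or hypertrophic replicate 3 (1.39). *Col5a2*, a fibrillar collagen gene, rose by 1.62 ± 0.44, with 36.4, 21.1 and 62.2 NRPKM against 83, 104 and 162.

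Other bone matrix genes were moved by replicates 2 and 3. *Dmp1*, the gene of dentin matrix protein 1, was at 3.56, 5.3 and 6.33 NRPKM in the proliferative libraries, at 12.2 in replicate 1 and at 134 and 171 in replicates 2 and 3. It counted as higher in all 3, but replicate 1 was nearer to the proliferative libraries than to the other 2 (log2 difference 3.70 ± 0.97, adjusted *P* = 0.14). *Spp1*, the gene of osteopontin, was at 12.5, 10.7 and 18.3 NRPKM, 24.1 NRPKM and 1083 and 979 NRPKM in the same order. Replicate 1 was just above the proliferative range, and the rise of 4.44 ± 1.42 log2 (adjusted *P* = 0.17, 0.00064 to 0.48 over the alternatives) came from the other 2. It did not pass without proliferative replicates 1 (4.38) or 2 (4.28) or hypertrophic replicates 2 (3.50) or 3 (3.58). The type I collagen gene *Col1a1* was at 202, 211 and 557 NRPKM in the proliferative libraries and 359.8, 723 and 1187 in the hypertrophic ones. Proliferative replicate 3 was above hypertrophic replicate 1, and its difference of 1.23 ± 0.56 log2 did not pass, nor did that of *Col1a2* at 1.19 ± 0.54. In both genes each hypertrophic library was above the proliferative library of the same number. They passed under 4 and 5 of the 13 alternatives.

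**Figure D2:**
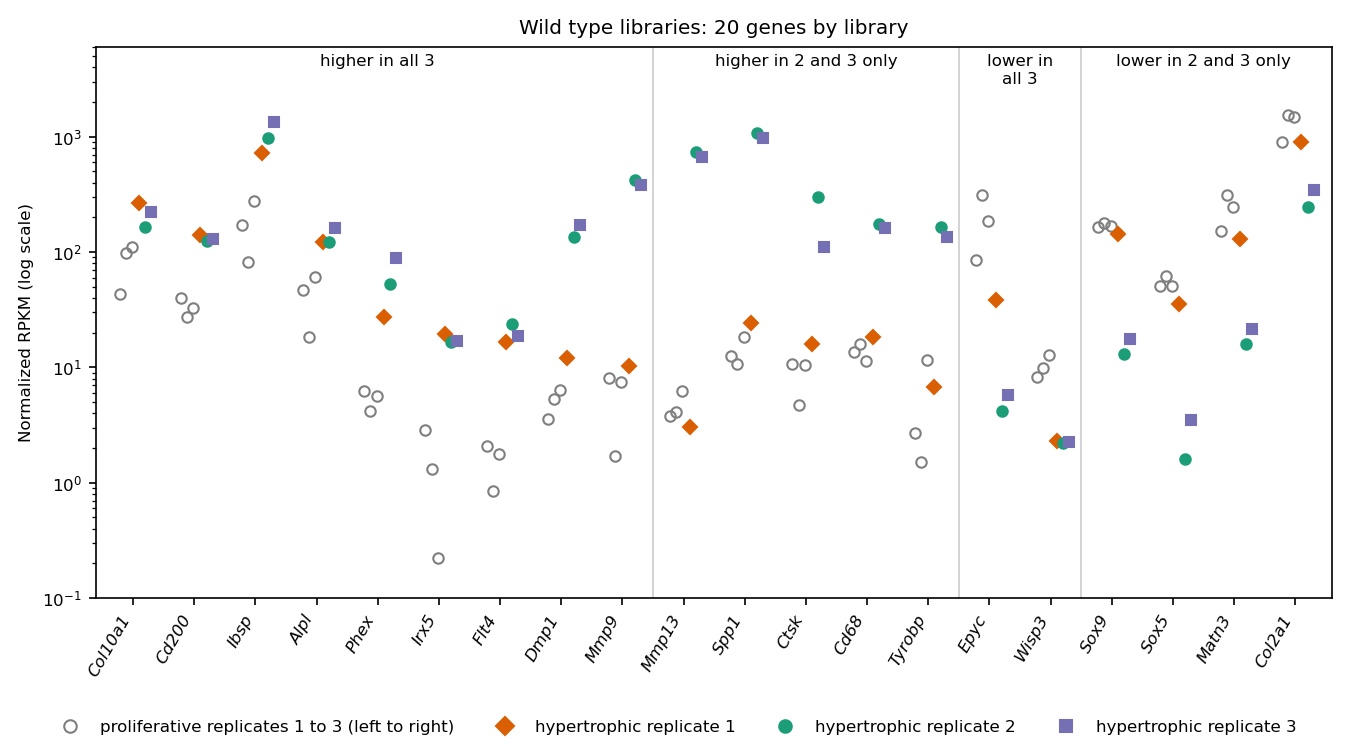
Normalized RPKM (log axis) of 20 genes in the 3 proliferative libraries (open circles, replicates 1 to 3 from left to right) and in hypertrophic replicates 1 (diamond), 2 (circle) and 3 (square), grouped by the libraries in which they changed. In *Cd200* and *Irx5* the 3 hypertrophic libraries lie together above the proliferative ones, while in *Mmp13*, *Spp1* and *Sox9* replicate 1 lies with or next to the proliferative libraries.

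The genes with the largest change in the weakest of the 3 hypertrophic libraries belong to several functions. After short RNA, ribosomal protein and unnamed rows were left out, the 10 rises were *Gpihbp1*, *Irx5*, *Btla*, *Flt4*, *Itga2*, *Enpp6*, *Spns2*, *Ifitm1*, *Hrc* and *Metrnl*. Of these, 7 passed the filter through the hypertrophic libraries only (*Gpihbp1*, *Irx5*, *Btla*, *Flt4*, *Itga2*, *Enpp6* and *Ifitm1*), so that the filter itself set a difference between the groups and their *P* values are a description. *Itga2*, the gene of a collagen-binding integrin subunit, was at 1.21, 0.684 and 1.4 NRPKM in the proliferative libraries and 10.6, 55.1 and 51.3 in the hypertrophic ones. Replicate 1 was well above the proliferative range and the other 2 were higher still, with a log2 difference of 4.75 ± 0.66 (adjusted *P* = 0.076). *Spns2*, which encodes an exporter of sphingosine 1-phosphate, was at 5.27, 1.1 and 2.91 NRPKM against 20.6, 32.1 and 41.7. It rose by 3.50 log2 and was well above the proliferative range in each hypertrophic library. *Metrnl*, a gene of a secreted meteorin-like protein, was at 11.6, 3.18 and 5.79 NRPKM against 42.9, 40.1 and 54.4 and rose by 2.90. The 3 hypertrophic libraries differed little. *Hrc*, which encodes a calcium-binding protein, was at 16, 1.29 and 8.72 NRPKM against 80.5, 41.1 and 84 and rose by 3.50, with one proliferative library far below the other 2. *Btla* and *Ifitm1* rose by 4.16 and 3.26 from low levels of 0 to 2.6 NRPKM and 0.24 to 1.58 NRPKM in the proliferative libraries. *Hhip*, a hedgehog target that binds the ligand, rose by 1.84 ± 0.62 log2, with 4.29, 2.71 and 15.4 NRPKM against 20, 15.4 and 27.7, the highest proliferative library lying only just below the lowest hypertrophic one. That rise was lost without proliferative replicates 1 (1.64) or 2 (1.32) or hypertrophic replicate 3 (1.62).

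Of the falls in all 3 libraries, *Epyc*, which encodes the cartilage proteoglycan epiphycan, was at 84.7, 311 and 186 NRPKM in the proliferative libraries and 38.7, 4.21 and 5.74 in the hypertrophic ones. Replicate 1 was below every proliferative library and replicates 2 and 3 were lower again, with a fall of 4.10 ± 0.89 log2 (adjusted *P* = 0.12). *Wisp3*, a matricellular gene of the CCN family, was at 8.19, 9.92 and 12.8 NRPKM against 2.31, 2.21 and 2.26. Here the 3 hypertrophic libraries were almost equal, and the fall was 2.12 ± 0.21 log2 (adjusted *P* = 0.052, 0.0049 to 0.24 over the alternatives). *Scrg1* was at 27.5, 154 and 84.1 NRPKM against 11, 1.32 and 5.76 and fell by 3.97. *C1qtnf3*, a secreted protein gene of cartilage, was at 62, 312 and 213 NRPKM against 33.7, 10.6 and 14.2 and fell by 3.21. In both, proliferative replicate 1 was the lowest of its group and hypertrophic replicate 1 the highest. The fatty acid transporter gene *Slc27a6* fell by 2.69 ± 0.35 log2, from 14.5, 25 and 17.7 NRPKM to 4.07, 2.97 and 1.81. The potassium channel gene *Kcnd1* fell by 2.46, with 5.63, 7.68 and 12.4 NRPKM against 1.1, 1.44 and 1.72. *Rlbp1*, *Zfp648*, *Mfi2* and *Fam180a* completed the 10, with falls of 4.40, 3.33, 3.48 and 4.04. Of the 10, *Kcnd1*, *Rlbp1*, *Slc27a6*, *Wisp3* and *Zfp648* passed the filter through the proliferative libraries only, so that for them too the *P* values are a description. *Shox2*, a homeobox gene of limb cartilage, was at 56.2, 95.7 and 58 NRPKM against 30.8, 16.3 and 15.47 and fell by 1.77 ± 0.35 (adjusted *P* = 0.096). *S100b*, a calcium-binding protein gene of cartilage that was listed here as a nerve sheath marker, fell by 2.73, from 41.3, 94.1 and 70.8 NRPKM to 26.2, 4.6 and 7.61.

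Cartilage matrix genes were lower, far more so in replicates 2 and 3 than in replicate 1. Of 19 genes in the list 17 were tested, 15 fell and none rose, where 4.01% of all genes fell. Without any one library 10 to 16 of the 17 fell, the fewest without hypertrophic replicate 2 or proliferative replicate 3. The median log2 difference was -0.75, -2.88 and -2.51 in replicates 1, 2 and 3. In replicates 2 and 3 only, 14 of the 17 counted as lower, against 5.75% of all genes. The summed level of the 19 genes was 3998, 6864 and 6231 NRPKM in the proliferative libraries, 3780 in replicate 1 and 934 and 1325 in replicates 2 and 3. *Col2a1*, the gene of type II collagen, was at 894, 1530.0 and 1488 NRPKM in the proliferative libraries and 898, 245 and 343 in the hypertrophic ones. Replicate 1 was level with the lowest proliferative library, and the fall of 1.58 ± 0.50 log2 (adjusted *P* = 0.17) came from replicates 2 and 3. It was lost without proliferative replicates 2 (-1.45) or 3 (-1.47) or hypertrophic replicates 2 (-1.19) or 3 (-1.43). The aggrecan gene *Acan* was at 248, 407 and 395 NRPKM against 222, 60 and 88.7 and fell by 1.69 ± 0.49. *Matn3*, a matrilin gene, was at 153, 315 and 247 NRPKM against 131, 16 and 21.4 and fell by 2.68 ± 0.79, with replicate 1 just below the proliferative range. The 3 chains of type IX collagen behaved alike, *Col9a1* falling by 2.16, *Col9a2* by 2.01 and *Col9a3* by 2.22. The link protein gene *Hapln1* was at 438, 654 and 488 NRPKM in the proliferative libraries and 595, 66.6 and 81.5 in the hypertrophic ones. In replicate 1 it was within the proliferative range, and its difference of -1.81 did not pass, but without replicate 1 it fell by 2.82 ± 0.24 (adjusted *P* = 0.0026, 0.0026 to 0.6 over the alternatives). *Fmod*, a collagen-binding proteoglycan gene, was at 26.8, 61.7 and 130.5 NRPKM against 9.4, 43.8 and 34.5 and was lowest in replicate 1.

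The SOX genes that control this matrix followed the same split. *Sox9* (mm10 chr11:112782210-112787757) was at 164, 180.1 and 169.7 NRPKM in the proliferative libraries and 143, 12.9 and 17.6 in the hypertrophic ones. Replicate 1 was just below the proliferative range, whereas replicates 2 and 3 were far below it. The fall over the 6 libraries was 2.42 ± 0.86 log2 (adjusted *P* = 0.2, 0.0013 to 0.51 over the alternatives), and it passed without replicate 1 but not without proliferative replicates 1 (-2.44), 2 (-2.38) or 3 (-2.42) or hypertrophic replicates 2 (-1.77) or 3 (-1.99). *Sox5* was at 50.5, 61.7 and 50.7 NRPKM against 35.3, 1.61 and 3.51 and fell by 3.17 ± 1.04, and *Sox6* was at 46.8, 45.2 and 41.8 NRPKM against 40, 10.1 and 13.7 and fell by 1.33 ± 0.49. The call of *Sox5* was lost without proliferative replicate 2 (-3.07) or hypertrophic replicate 3 (-2.80), and that of *Sox6* without any library but replicate 1, with proliferative replicates 1 (-1.29), 2 (-1.32) or 3 (-1.37) or hypertrophic replicates 2 (-0.92) or 3 (-1.15). The ubiquitin ligase gene *Wwp2*, whose product binds SOX9, was at 147, 174 and 150.4 NRPKM against 101, 25.9 and 29.6 and fell by 1.88 ± 0.51. Of 20 chondrogenic regulators 16 were tested, 5 fell and 1 rose, where 4.01% of all genes fell and 5.35% rose. In replicates 2 and 3 only, 8 were lower, against 5.75% of all genes. Without replicate 1 the number that fell was 9, where 8.04% of all genes fell, and without any other library it was 2 or 3. The median log2 difference was -0.15, -1.29 and -1.12 in replicates 1, 2 and 3. Regulators with little difference were *Trps1* at -0.22 log2, *Gli2* at -0.22 and *Hdac4* at -0.18.

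Members of the maturation list differed in direction in replicates 2 and 3. *Runx2*, *Sp7*, *Dlx5* and *Mef2c*, given above, were higher there than in every proliferative library, and *Fgfr3*, *Runx3*, *Cdkn1c* and *Foxa3* were lower. *Fgfr3*, the fibroblast growth factor receptor that slows chondrocyte division, was at 78.5, 116 and 82.8 NRPKM in the proliferative libraries and 63.6, 17.4 and 18.5 in the hypertrophic ones. It fell by 1.73 ± 0.51 log2 (adjusted *P* = 0.16), replicate 1 again being the nearest to the proliferative libraries. *Runx3* was at 73.1, 67.8 and 64.2 NRPKM against 70.6, 14.2 and 18.1. Replicate 1 was inside the proliferative range, and the difference of -1.38 ± 0.58 log2 did not pass. The cyclin-dependent kinase inhibitor gene *Cdkn1c* was at 234, 285 and 275 NRPKM against 285, 67.8 and 92.3, and its difference of -1.12 ± 0.52 did not pass. *Foxa3*, a forkhead factor gene, was at 16.7, 9.99 and 19.4 NRPKM against 13.8, 1.51 and 2.8 and fell by 1.89 ± 0.77, a call lost without proliferative replicates 1 (-1.80), 2 (-2.17) or 3 (-1.70) or hypertrophic replicates 2 (-1.23) or 3 (-1.65). Without replicate 1, the adjusted *P* of *Fgfr3*, *Runx3*, *Cdkn1c* and *Foxa3* was 0.004, 0.0034, 0.0065 and 0.0084. Over the alternatives it ran from 0.004 to 0.46, 0.0034 to 0.57, 0.0065 to 0.62 and 0.0084 to 0.55.

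**Figure D3:**
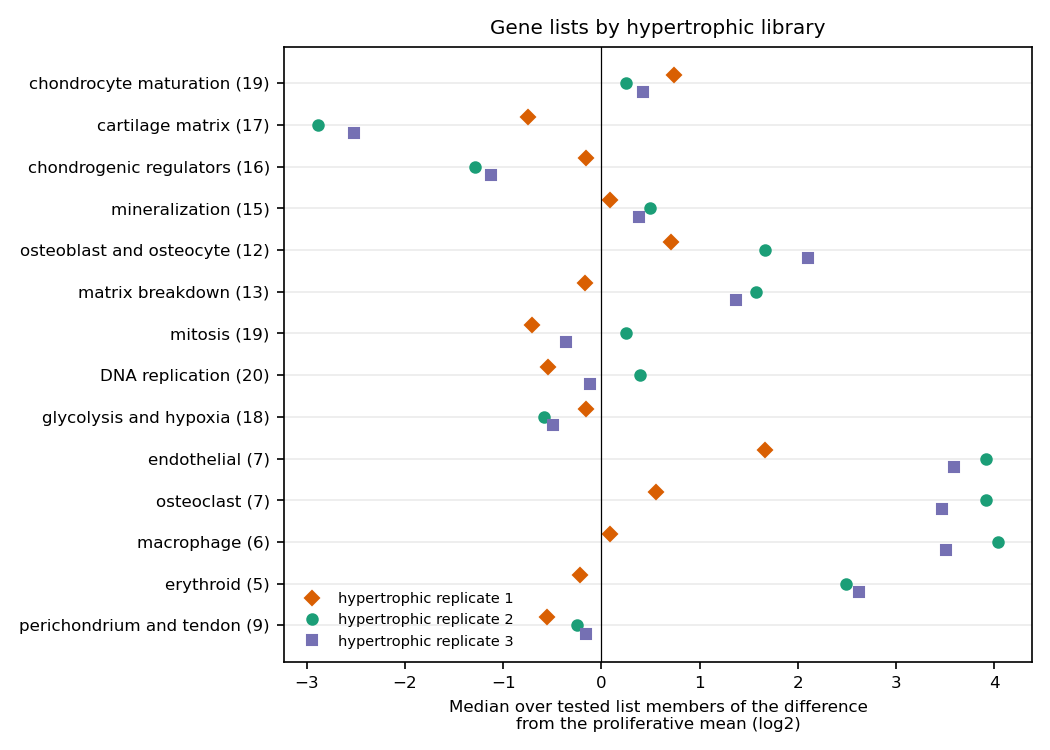
Median difference from the proliferative mean (log2 of NRPKM + 0.1) over the tested members of 14 gene lists, with the number tested in parentheses, for hypertrophic replicates 1, 2 and 3. For cartilage matrix the medians are -0.75, -2.88 and -2.51 and for osteoclast genes 0.56, 3.91 and 3.47, whereas for chondrocyte maturation replicate 1 has the highest of the 3.

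Markers of the cells that invade the cartilage were high in replicates 2 and 3. Of 15 osteoclast genes 7 were tested, 5 rose and none fell. *Atp6v0d2* had passed the filter through the hypertrophic libraries only and had to differ. Of the other 6, 4 rose, where 4.37% of all genes that reached the limit in both compartments rose. The number that rose was 6 without replicate 1, where 9.63% of all genes passed as higher. It was 2 without replicate 2, 2 without replicate 3 and 3, 2 and 4 without proliferative replicates 1, 2 and 3. Under settings that kept all 6 libraries it was 3 to 6, lowest without a filter on low values. The medians over the 7 tested were 0.56, 3.91 and 3.47 log2 in replicates 1, 2 and 3. They do not describe the whole list. The 8 members not tested were at 0 to 4.31 NRPKM in replicate 1, and 7 of them reached 5 NRPKM in replicates 2 and 3 only. The summed level of the 15 genes was 75.8, 61.1 and 80.0 NRPKM in the proliferative libraries, 89.2 in replicate 1 and 1526 and 1149 in replicates 2 and 3. *Calcr* and *Oscar*, both defining genes of osteoclasts, were listed at 0 in replicate 1. *Ctsk*, the cathepsin that digests bone collagen, was at 10.7, 4.69 and 10.6 NRPKM in the proliferative libraries, 15.9 in replicate 1 and 300.1 and 111 in replicates 2 and 3. The groups did not overlap, but replicate 1 was close to the highest proliferative libraries (log2 difference 3.31 ± 1.02, adjusted *P* = 0.17), and the call was lost without proliferative replicate 2 (2.92). *Mmp9*, the gelatinase of osteoclasts, was at 8.1, 1.69 and 7.42 NRPKM, 10.3 NRPKM and 422 and 378 NRPKM in the same order, and rose by 4.62 ± 1.48 log2. It counted as higher in all 3, although replicate 1 was only just above the proliferative range, and it did not pass without proliferative replicate 2 (3.91) or hypertrophic replicates 2 (3.71) or 3 (3.79). *Atp6v0d2*, a proton pump subunit gene of osteoclasts, was at 1.22, 1.1 and 1.15 NRPKM, 5.3 NRPKM and 151 and 126 NRPKM, and rose by 5.22 ± 1.22. In replicate 1 it was above the proliferative libraries but far below the other 2. *Tcirg1*, another pump subunit gene, was at 6.07, 3.63 and 3.04 NRPKM against 4.44, 62.6 and 46.1 and rose by 2.50, but not without proliferative replicates 1 (2.79), 2 (2.42) or 3 (2.30) or hypertrophic replicates 2 (1.80) or 3 (2.02). *Tnfrsf11a*, the receptor that drives osteoclast formation, rose by 1.0, with 5.29, 11.6 and 11.3 NRPKM against 13.1, 21 and 20.6, but not without proliferative replicate 1 (0.64) or hypertrophic replicates 2 (0.88) or 3 (0.90). It lay at the FC limit, and the call was lost too with a pseudocount of 1 (0.93), with rescaling by the median of ratios (0.95) and without a filter on low values.

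Some genes of a macrophage list were high in the same libraries. Of 15 listed, 6 were tested, 3 rose and none fell, where 5.35% of all genes rose. All 6 rose without replicate 1, where 9.63% of all genes passed as higher. Of the 6, 1 rose without replicate 2, replicate 3 or proliferative replicate 1, and 2 rose without either of the other proliferative libraries. The medians were 0.09, 4.04 and 3.51 log2. The summed level of the list was 57.4 to 75.1 NRPKM in the proliferative libraries, 68.7 in replicate 1 and 723 and 591 in replicates 2 and 3. *Cd68*, a lysosomal membrane protein gene, was at 13.5, 15.9 and 11.4 NRPKM in the proliferative libraries and 18.2, 174 and 160.4 in the hypertrophic ones. *Tyrobp*, an adaptor gene of myeloid cells and osteoclasts, was at 2.7, 1.51 and 11.5 NRPKM against 6.81, 164 and 136. Replicate 1 was just above the proliferative range in *Cd68* and inside it in *Tyrobp*, and the rises were 2.56 ± 0.85 and 3.84 ± 1.34 log2. The former was lost without proliferative replicates 1 (2.56) or 3 (2.44) or hypertrophic replicates 2 (2.0) or 3 (2.06), the latter without proliferative replicates 1 (3.63) or 2 (3.23) or hypertrophic replicates 2 (3.03) or 3 (3.17). Members of the list that were not tested gave mixed levels. *C1qa*, a complement gene of tissue macrophages, was listed at 0 in all proliferative libraries and in replicates 1 and 3, and at 0.285 NRPKM in replicate 2, and *Adgre1*, which encodes the macrophage marker F4/80, was at 0.699, 0.809 and 2.04 NRPKM in the proliferative libraries and 0.472, 1.77 and 0.478 in the hypertrophic ones. *C1qb*, another complement gene, was at 0.489, 2.04 and 1.5 NRPKM against 1.4, 6.1 and 1.9, highest in replicate 2. *Lyz2*, a lysozyme gene of myeloid cells that was tested, was at 0, 1.48 and 5.51 NRPKM against 0, 37.1 and 10.5, and its difference of 1.82 log2 did not pass.

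Endothelial genes were high in replicates 2 and 3, and some of those tested were higher in replicate 1 as well. Of 20 listed, 7 were tested, 5 rose and none fell, and 4 to 6 rose without any one library. *Flt4* and *Gpihbp1* had passed the filter through the hypertrophic libraries only and had to differ. Of the other 5 tested, 3 rose, where 4.37% of all genes that reached the limit in both compartments rose. The medians over these 7 were 1.67, 3.92 and 3.59 log2. They do not describe the whole list in replicate 1, because the filter let in the members that replicate 1 or a proliferative library held at 5 NRPKM or more. The 13 members not tested were at 0.126 to 2.66 NRPKM in replicate 1, and 11 of them reached 5 NRPKM in replicates 2 and 3 only. The summed level of the list was 50.1, 24.5 and 57.8 NRPKM in the proliferative libraries, 95.8 in replicate 1 and 520.5 and 372.5 in replicates 2 and 3. *Flt4*, the receptor of vascular endothelial growth factor C, was at 2.1, 0.842 and 1.78 NRPKM in the proliferative libraries and 16.7, 23.7 and 18.8 in the hypertrophic ones. Replicate 1 was the lowest of the 3 hypertrophic libraries but close to replicate 3, with a log2 difference of 3.64 ± 0.35 (adjusted *P* = 0.052, 0.0045 to 0.24 over the alternatives). *Cdh5*, the cadherin of endothelial junctions, was at 1.27, 0.58 and 5.69 NRPKM, 7.3 NRPKM and 96.5 and 72.5 NRPKM, so that replicate 1 was just above the proliferative range. It rose by 4.41 ± 1.17 log2. *Cd34* rose by 2.69, with 3.93, 2.19 and 5.24 NRPKM against 10.6, 36.8 and 33.9, but did not pass with all 12 libraries in one fit (unadjusted *P* = 0.052 in limma). *Gpihbp1*, which anchors lipoprotein lipase on capillaries, was at 0.268, 0 and 0 NRPKM in the proliferative libraries and 5.37, 24.2 and 6.74 in the hypertrophic ones. Its only proliferative value above 0 was below 0.382 NRPKM, the worth of a single read on 1 kb in that library. Replicate 2 was well above the other hypertrophic libraries. *Erg*, an ETS factor gene that cartilage also expresses, was at 24.1, 8.66 and 14.7 NRPKM against 28.6, 18.7 and 22.1, with overlap. Genes of mural cells of vessels differed in direction. *Pdgfrb* and *Mcam* rose by 2.28 and 2.06 log2, both in replicates 2 and 3 only. They were 2 of the 3 genes tested in that list of 12, where 5.35% of all genes rose. The remaining one, the proteoglycan gene *Cspg4*, was lower in replicates 2 and 3 only, at 64.5, 73.7 and 87.5 NRPKM against 57.4, 28.4 and 34.9. Its difference of -0.96 log2 did not pass, but without replicate 1 it fell by 1.24 ± 0.21 (adjusted *P* = 0.015, 0.015 to 0.48 over the alternatives). The call of *Pdgfrb* was lost without proliferative replicates 1 (2.66), 2 (1.73) or 3 (2.46) or hypertrophic replicates 2 (1.71) or 3 (1.83), and that of *Mcam* without proliferative replicates 2 (1.40) or 3 (2.17) or hypertrophic replicates 2 (1.59) or 3 (1.79). Both calls were also lost without a filter on low values and with the replicate block.

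Among blood and muscle genes no member passed in limma, and 0 had an unadjusted *P* of at most 0.05, where 9.36% of all genes passed. With a pseudocount of 1, a variance trend or all 12 libraries in one fit, 1 erythroid gene rose, and the number was 2 of the 5 tested without proliferative replicate 1 and 3 without hypertrophic replicate 1. Of 16 erythroid genes, 12 had a row and 5 were tested. Of the 5, 4 were higher in replicates 2 and 3 only, as were 6.32% of all genes. This class does not always mean a low replicate 1. *Hbb-y* was at 65 NRPKM in replicate 1, against 76.8 and 70.5 in replicates 2 and 3. It was not counted in replicate 1 because proliferative replicate 1 was at 67.9. *Hba-x*, given among the other observations, was alike. The beta globin gene *Hbb-bs* was at 29.3, 22.1 and 91.2 NRPKM in the proliferative libraries and 28.1, 219.9 and 240.3 in the hypertrophic ones. The adult-type globin genes are close copies, and reads that fit several places were removed by the authors, so these levels are uncertain. The skeletal muscle list had 2 of 15 genes tested, and its sum was highest in proliferative replicate 3, at 148.1 NRPKM against 15.1 to 52.8 in the other 5 libraries. Of 9 tested genes of perichondrium and tendon, *Twist1* rose by 1.69 and *Mkx* fell by 1.14. *Twist1* did not pass without proliferative replicates 2 (1.09) or 3 (1.66) or hypertrophic replicates 2 (1.58) or 3 (1.44), nor *Mkx* without proliferative replicate 3 (-1.06) or hypertrophic replicate 2 (-0.73).

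**Figure D4:**
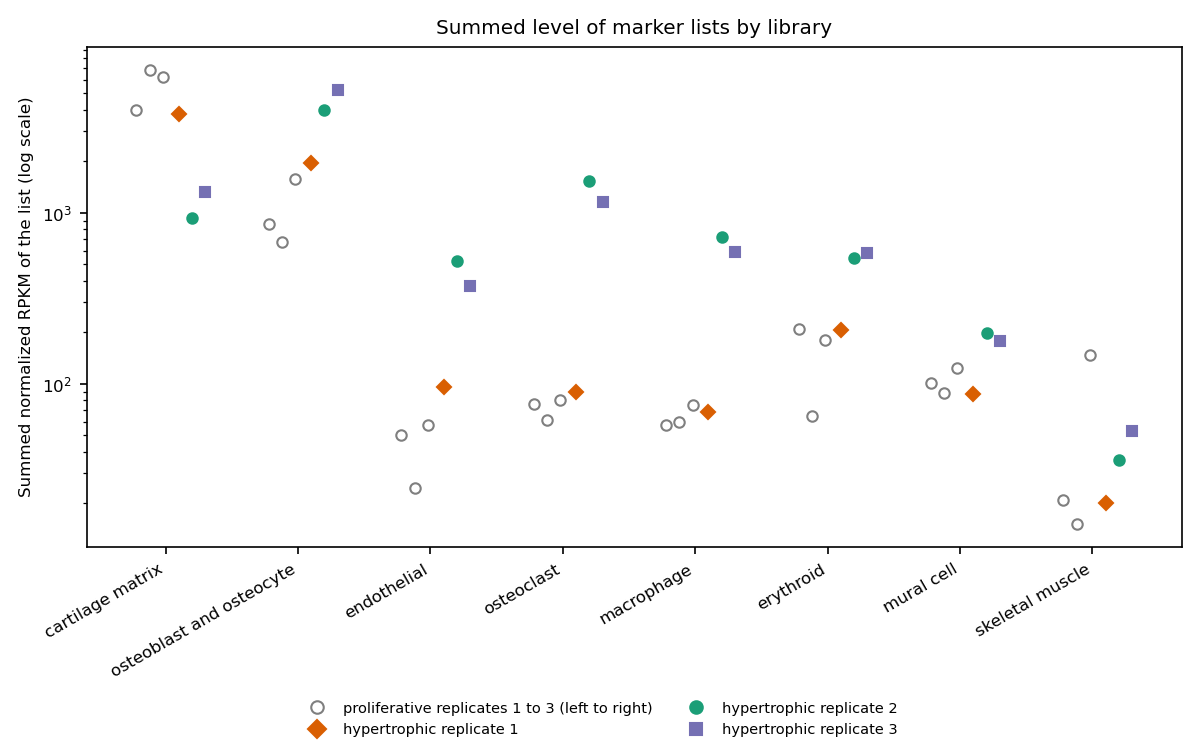
Summed normalized RPKM (log axis) of 8 marker lists in each of the 6 libraries, with proliferative replicates 1 to 3 as open circles and hypertrophic replicates 1, 2 and 3 as diamond, circle and square. For osteoclast genes replicate 1 is at 89.2, next to the proliferative libraries at 61.1 to 80.0, and replicates 2 and 3 are at 1526 and 1149. For cartilage matrix replicates 2 and 3 lie at 934 and 1325, below the other 4 libraries.

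In a list of 20 genes of matrix breakdown and its control, 13 were tested, 5 rose and none fell, where 5.35% of all genes rose. The 5 were *Mmp9*, the proteases *Adamts9* and *Ctsl*, the inhibitor *Timp3* and the collagen cross-linking enzyme *Lox*. Without replicate 1 the number was 8, where 9.63% of all genes passed as higher, without replicate 2 or proliferative replicate 2 it was 2, without replicate 3 it was 3, and without proliferative replicates 1 and 3 it was 5 and 4. The medians were -0.16, 1.58 and 1.37 log2. *Mmp14*, the membrane-bound collagenase, was at 63.3, 45.4 and 75.3 NRPKM in the proliferative libraries and 62.1, 197 and 189 in the hypertrophic ones. Replicate 1 was inside the proliferative range, and the difference of 1.14 ± 0.48 log2 did not pass. *Adamts9*, an aggrecan-cutting protease gene, was at 11.8, 7.21 and 7.73 NRPKM against 11.2, 49.3 and 39.2 and rose by 1.67 ± 0.56, but not without proliferative replicates 2 (1.54) or 3 (1.59) or hypertrophic replicates 2 (1.26) or 3 (1.43). The cathepsin gene *Ctsl* was at 26.5, 20.4 and 32.1 NRPKM against 37.1, 84.3 and 71.1 and rose by 1.22, but not without hypertrophic replicate 2 (0.98). The inhibitor gene *Timp3* rose by 1.13, with 31.9, 18.6 and 29.7 NRPKM against 41.5, 66.3 and 67.5, a call lost without proliferative replicate 2 (0.89). *Lox*, whose enzyme links collagen fibres, rose by 1.69 ± 0.48 and was higher in all 3 libraries, at 37, 27.7 and 91.3 NRPKM against 105, 148 and 203. *Mmp2* was at 71.7, 82.2 and 90.4 NRPKM against 64.1, 67.6 and 74.8, with overlap.

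Among genes higher in replicates 2 and 3 only, with replicate 1 inside the proliferative range, the largest changes in the weaker library were those of *Spi1*, *Pgf*, *Tyrobp*, *Heyl*, *Mgst3*, *Fcer1g*, *Tm4sf1*, *Hbb-y*, *Sox18* and *Capg*. *Spi1*, the myeloid transcription factor PU.1, was at 0.86, 0 and 7.55 NRPKM in the proliferative libraries, 0.964 in replicate 1 and 48.6 and 50.2 in replicates 2 and 3. *Pgf*, placental growth factor, was at 0.243, 0 and 5.12 NRPKM, 0.546 NRPKM and 21.1 and 26.3 NRPKM, and the Notch target *Heyl* at 0.674, 0.464 and 5.61, 1.21 and 34.8 and 39.6. In all 3 genes proliferative replicate 3 was the highest of its group. It was also their only library at 5 NRPKM or more beside replicates 2 and 3. The filter needed such a library and rows without one were not tested, so this likeness was set by the selection. Only *Tyrobp* and *Sox18*, an endothelial factor gene, passed over the 6 libraries, the latter with a rise of 3.26 ± 1.14 log2 that was lost without proliferative replicates 1 (3.47) or 2 (2.13) or hypertrophic replicates 2 (2.72) or 3 (3.01). *Tyrobp* was lost without the same 4 libraries, as given above. In *Hbb-y* replicate 1 was inside the proliferative range only because that range was wide, at 67.9, 0 and 19.7 NRPKM. Replicate 1 was at 65 there, against 76.8 and 70.5 in replicates 2 and 3. All genes of this set were picked by their change in replicates 2 and 3, so their *P* values without replicate 1 are a description. Without replicate 1, the adjusted *P* in limma was under 0.05 in *Tyrobp*, *Heyl*, *Fcer1g*, *Tm4sf1* and *Capg* (0.011, 0.024, 0.0042, 0.043 and 0.0049). Over the alternatives these ran from 0.011 to 0.5, 0.024 to 0.62, 0.0042 to 0.6, 0.043 to 0.78 and 0.0049 to 0.57.

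The corresponding falls in replicates 2 and 3 only were those of *DQ267102*, *Atp6v0a4*, *Cacng7*, *Ntm*, *L1cam*, *Fxyd3*, *Acsm3*, *Serpina3n*, *Moxd1* and *Wasf3*. *DQ267102* is a short RNA row of 71 bases that the rule on symbols did not leave out. It was at 28.7, 15 and 46.7 NRPKM against 30.6, 0 and 1.04, and its difference of -4.17 log2 did not pass. *Atp6v0a4*, a proton pump subunit gene, was at 18.4, 11.8 and 14.8 NRPKM in the proliferative libraries and 12.3, 0.923 and 0.847 in the hypertrophic ones. It fell by 2.69 ± 0.97 log2 but did not pass without proliferative replicates 1 (-2.53), 2 (-2.86) or 3 (-2.69) or hypertrophic replicates 2 (-2.11) or 3 (-2.06). *Ntm* and *L1cam*, both cell adhesion genes known from neurons, were at 19.6, 11 and 4.86 NRPKM against 6.33, 0.444 and 0.725 and at 16.6, 14.2 and 7.09 NRPKM against 7.65, 1.02 and 1.05. They fell by 2.85 and 2.47. *Ntm* did not pass without proliferative replicates 1 (-2.38) or 2 (-2.79) or hypertrophic replicates 2 (-2.16) or 3 (-2.46), and *L1cam* not without proliferative replicates 1 (-2.23) or 2 (-2.35) or hypertrophic replicates 2 (-2.0) or 3 (-2.02). *Moxd1* was at 99.7, 52.1 and 52.6 NRPKM against 87, 4.66 and 6.66. Replicate 1 was near the highest proliferative library, and the difference of -2.21 ± 1.07 log2 did not pass. By size over the 6 libraries, with no overlap, the largest falls also held *Cmtm5*, *Phlda2*, *Cxcr1*, *Otogl* and the short RNA rows *AF357426* and *AF357355* of 67 and 71 bases. *Cmtm5* was at 65.3, 59.2 and 61.4 NRPKM in the proliferative libraries and 23.8, 1.03 and 0.261 in the hypertrophic ones, a fall of 4.86 ± 1.41 log2. *Phlda2*, an imprinted growth gene, was at 28.5, 20.6 and 18 NRPKM against 9.29, 0 and 0.911 and fell by 4.49, a call lost without proliferative replicates 1 (-4.30) or 2 (-4.53). *Kcne3*, a potassium channel subunit gene, was the remaining gene among the 10 largest rises, at 1.81, 0.304 and 2.67 NRPKM against 5.75, 37.9 and 40.5. Like *Atp6v0d2*, it passed the filter through the hypertrophic libraries only, whereas *Cxcr1* and *Otogl* passed it through the proliferative libraries only.

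Short RNA rows fell where they moved. Of 126 microRNA, small nucleolar and other short RNA rows tested, none rose and 19 fell, 15 of them with no overlap. Of all genes, 4.01% fell and 3.24% fell with no overlap. The libraries were not made for RNA of that size, and these rows may share reads with longer transcripts at the same place. The background that separated replicates 2 and 3 from the other libraries moved in the same direction, and its part in these falls was not tested.

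None of 19 mitosis genes and none of 20 DNA replication genes tested passed in limma in either direction over the 6 libraries, or without any one of them, where 5.35% of all genes rose and 4.01% fell. At an unadjusted *P* of at most 0.05 there were 3 mitosis genes and 1 replication gene, all under the FC limit. The medians over the 6 libraries were -0.31 and -0.10 log2. By library the mitosis medians were -0.70, 0.25 and -0.36 and the replication medians -0.54, 0.39 and -0.11 in replicates 1, 2 and 3. Replicate 1 thus had the lowest median of both lists. *Mki67*, a marker of dividing cells, was at 86.1, 84 and 82.2 NRPKM in the proliferative libraries and 52.1, 75.9 and 60.5 in the hypertrophic ones. The groups did not overlap, but the difference of -0.44 ± 0.20 log2 was small. *Ccnb2* was at 32.2, 36.4 and 37.5 NRPKM against 17.1, 29.4 and 23.3, lowest in replicate 1. *Mcm2*, a replication helicase gene, was at 30.1, 27.7 and 26.4 NRPKM against 14, 32.4 and 25.9, lowest in replicate 1, above the proliferative range in replicate 2 and just below it in replicate 3. Of 18 tested genes of glycolysis and hypoxia, *Bnip3*, a mitochondrial gene induced by low oxygen, fell by 1.25 ± 0.48 log2, with 55.4, 111 and 75.5 NRPKM against 65.6, 22.3 and 23.3, but not without proliferative replicates 2 (-0.99) or 3 (-1.27) or hypertrophic replicates 2 (-0.98) or 3 (-1.01). The glucose transporter gene *Slc2a1* was at 99.9, 119 and 106 NRPKM against 79.8, 44 and 46.1, and its difference of -0.98 log2 was just under the FC limit.

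The filter kept out genes that only 2 hypertrophic libraries expressed. In 531 rows the value was at least 5 NRPKM in replicates 2 and 3 and below 5 in the other 4 libraries, and these rows were not tested. In 137 rows replicate 1 was the only library at 5 NRPKM or more. The 531 rows include 7 genes of the osteoclast list, 11 of the endothelial list, 2 of the macrophage list and 2 of the osteoblast list. *Acp5*, the tartrate-resistant phosphatase of osteoclasts, was at 2.84, 2.22 and 1.64 NRPKM in the proliferative libraries, 2.92 in replicate 1 and 246 and 200 in replicates 2 and 3. *Itgb3*, the osteoclast integrin, was at 1.71, 2.57 and 1.42, 2.08 and 91.9 and 80.3 NRPKM, and *Ocstamp*, a gene of osteoclast fusion, at 0, 0 and 0.271, 1.09 and 51.2 and 42.6. In each of these genes replicate 1 was within or near the proliferative range and far below the other hypertrophic libraries. *Csf1r*, the receptor of macrophage colony-stimulating factor, was at 2.12, 1.99 and 1.15 NRPKM, 2.08 NRPKM and 56.7 and 49.6 NRPKM. The endothelial genes *Pecam1*, at 1.38, 1.41 and 3.11 NRPKM against 2.41, 46.2 and 35, and *Kdr*, at 1.12, 1.27 and 0.561 against 1.51, 22.6 and 16.2, gave the same picture. *Tnfsf11*, the ligand that induces osteoclasts, was at 0.451, 0.234 and 0.948 NRPKM, 0.958 NRPKM and 11.9 and 11.3 NRPKM. *Ankh*, the pyrophosphate transporter gene, was at 4.47, 3.34 and 3.96 NRPKM in the proliferative libraries, 3.65 in replicate 1 and 51.6 and 54.8 in replicates 2 and 3. *Mepe*, a matrix gene of osteocytes, was at 0.908, 0.168 and 2.83 NRPKM against 0.636, 11.2 and 16.2. *Bglap*, the osteocalcin gene of mature osteoblasts, was low in all libraries, at 0, 0.838 and 0 NRPKM in the proliferative libraries and 1.4, 1.98 and 3.54 in the hypertrophic ones. *Bglap2*, of the same list, was at 0 in the proliferative libraries and replicate 1 and at 2.62 and 4.28 NRPKM in replicates 2 and 3. Reads that fit several places were removed by the authors, so the levels of *Bglap* and *Bglap2* are uncertain if their sequences are alike.

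Of the 111 tested genes named with values here, 71 passed over the 6 libraries, and 42 of these passed under each of 13 alternatives, among them every fit that left out 1 library. They include *Col10a1*, *Cd200*, *Irx5*, *Alpl*, *Phex*, *Ibsp*, *Dmp1*, *Itga2*, *Flt4*, *Cdh5*, *Lox*, *Atp6v0d2*, *Epyc*, *Wisp3*, *Shox2*, *Acan*, *Matn3*, *Wwp2* and *Fgfr3*. Of the 42, 9 passed the filter through the hypertrophic and 5 through the proliferative libraries only. The other 29 lost the call under at least 1 alternative. Beside the fits without 1 library, the fit without a filter on low values ended the calls of *Sox6*, *Foxa3*, *Tcirg1*, *Pdgfrb*, *Mcam*, *Twist1* and *Bnip3*, the filter over all 12 libraries those of *Foxa3* and *Pdgfrb*, and a pseudocount of 1 that of *Mkx*. Of the 40 genes that did not pass, 24 passed under at least 1 alternative, *Mmp13*, *Runx3*, *Hapln1*, *Cdkn1c* and *Mmp14* among them.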

How the data were processed

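RNA of laser-captured E15.5 forelimb cartilage was amplified by the authors with an RNA-Seq kit of NuGen, and libraries were made with Nextera for an Illumina HiSeq. The submitters' processing notes name TopHat and mouse build mm10, and the methods of the study name GeneSpring. The deposited values are normalized RPKM (NRPKM), which the authors made per gene after removing reads of low quality, duplicate reads and reads aligned to several places. The normalization itself is not given in the sources used here, nor whether counting used the strand, and overlapping genes may share reads. The table was used as deposited, with no column left out, and 3 proliferative and 3 hypertrophic libraries entered each test. Nothing in the labels says which libraries share an embryo, so *P* values measure the spread between these libraries.

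Genes with at least 5 NRPKM in 3 or more of the 6 libraries were compared with limma 3.58.1 (R 4.3.3) on log2(NRPKM + 0.1), which understates changes of low genes, and *P* values were adjusted over all genes tested by Benjamini and Hochberg. A gene passed with an unadjusted *P* of at most 0.05 and an FC of at least 2, the limits of the study. The procedure was tested on simulated data. Reads were recovered from the step between low values of short single-exon rows, where 82.6 to 85.9% of values in the 6 libraries were whole multiples within 0.02 of a read. Whole reads were not recovered for longer genes and no count test was run. Read numbers of single genes are not given here.

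Named genes were the 10 largest rises and falls with no overlap between groups, the 10 genes in each direction with the largest change in the weakest library among those changed in all 3 hypertrophic libraries, the same for the weaker of replicates 2 and 3 among those changed only there, and members of 18 gene lists. Rows whose symbols start with Mir, Snor, Scarna, Rnu, Rpl, Rps or Gm and digits, or end in Rik, were not named. Some members of these lists are not reported here by name. The members, lists and motifs were chosen with earlier results of these data known. The alternatives were other pseudocounts, filters, scalings and fits, and leaving out each library. Intervals of counting error were not used, since no molecular identifiers are named for these reads.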

Additional observations from a re-analysis of the deposited data

How the results depend on the processing

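Without the filter on low values, 2120 genes passed over the 6 libraries (1118 higher, 1002 lower), 4027 without hypertrophic replicate 1 (1925 higher, 2102 lower), and 1159 and 3217 rows counted as changed in all 3 libraries and in replicates 2 and 3 only. Genes with an adjusted *P* under 0.05 numbered 10 in that setting (979 without replicate 1), 31 with a pseudocount of 1, 9 with a variance trend, 807 with all 12 libraries in one fit, and 0 with rescaling by the median of ratios, with the replicate block and with the filter taken over all 12 libraries. Leaving out 1 library gave 617 to 1750 genes, 362 to 954 higher and 255 to 796 lower, and 0 to 1957 with an adjusted *P* under 0.05, each lowest without hypertrophic replicate 3 or equal to 0 without any library but hypertrophic replicate 1, and each highest without hypertrophic replicate 1. Every other planned setting kept these counts within 1.5 times their value. The smaller classes moved more. In replicates 1 and 2 only and in replicates 1 and 3 only, 27 and 40 genes counted as changed. These were 62 and 60 without proliferative replicate 1, 20 and 22 with a pseudocount of 1, and 349 and 382 without the filter. Why the settings differ was not tested. With the replicate block, 917 genes passed, 507 higher and 410 lower, and 2088 without replicate 1. Libraries with the same number were not treated as pairs, since the labels name no shared embryo and their deviations correlated at -0.105, 0.002 and 0.142 over genes, which leaves a shared embryo untested. The block ended the calls of *Bnip3*, *Mcam*, *Pdgfrb*, *Tcirg1* and *Twist1*, and 9 of the named genes gained a call with it. In the osteoblast and osteocyte list the number that rose went from 7 to 9, and 1 erythroid gene passed as higher. The values of 5 genes that had not passed changed sign. *Panx3* ran from -0.064 to 0.28 log2 over fits without 1 library (-0.045 without proliferative replicate 1), *Ihh* from -1.21 to 0.068, *Bmp6* from -0.28 to 0.56, *Phospho1* from -0.10 to 1.83 and *Mcm2* from -0.56 to 0.047. Over the 111 named genes, 1254 of 1443 alternative values kept direction and call, 115 lost the call, 68 gained it and 6 changed sign. Depth limits low genes, since a single read on 1 kb is worth up to 0.530 NRPKM.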

Other observations

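Some transcripts of other tissues had like levels in replicate 1 of both compartments, a pattern picked after the values were seen and given with no test. The embryonic globin gene *Hbb-y* was at 67.9, 0 and 19.7 NRPKM in proliferative replicates 1, 2 and 3 and at 65, 76.8 and 70.5 in hypertrophic replicates 1, 2 and 3, and *Hba-x*, the other embryonic globin gene, at 78.3, 1.39 and 12.4 and 77, 90 and 102. In both globin genes hypertrophic replicates 2 and 3 were near that level too, so the likeness was not particular to replicate 1. The nerve sheath factor gene *Sox10* was at 8.66, 0.574 and 1.26 NRPKM in the proliferative libraries and 8.46, 0.113 and 0.123 in the hypertrophic ones. Of these genes, only *Sox10* was alike in the libraries numbered 1 alone. Of all pairs of 1 proliferative and 1 hypertrophic library, the 2 libraries numbered 1 were also the closest over the genes tested, at a root mean square log2 distance of 0.633, against 0.756 to 1.215 for the other pairs. Proliferative replicate 1 was also the nearest of its group to hypertrophic replicates 2 and 3. Hypertrophic replicate 1 was the nearest of its group to every proliferative library, so this distance cannot show a match by number. The labels do not say whether libraries with the same number came from the same embryo.

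The numbers are those of the deposited labels, and another listing by the study puts the proliferative libraries in another order, so a match by number may not mean a shared embryo. Genes that differ by sex also went by the deposited number. *Ddx3y* was at 0.082, 27.8 and 0.114 NRPKM in the proliferative and 0, 20.5 and 0.0721 in the hypertrophic libraries, and *Xist* at 255, 1.94 and 294 and 285, 0.81 and 191, so replicate 2 of both compartments differed from the other 4 libraries.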
